A study of Mus musculus with 16 samples.

Results

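The 10 genes described here make and use small RNAs: Dicer1, Drosha, Dgcr8, Xpo5, Tarbp2, Prkra and the Argonaute genes Ago1, Ago2, Ago3 and Ago4. They were chosen by name from the 35920 genes of the table and followed through all 16 libraries, and the number of libraries in which each was listed at 0 was counted. RNA from mouse testis was divided with J2, a monoclonal antibody to double-stranded RNA, into bound RNA (J2) and the unbound remainder (flow-through), and both were sequenced. The groups were testis of mice labelled Dicer KO at postnatal day 18 (P18; genotype Dcr-/-, 3 J2 and 3 flow-through libraries), adult testis (genotype wild type, strain given as unknown, 2 and 2 libraries), and wild-type testis at P18 (3 and 3 libraries). Both P18 groups share the mixed background C57BL/6 x 129S4/SvJae, so age cannot be told apart from strain. The labels name neither the deleted part of the Dicer gene nor the cells that lost it, and do not say that replicates came from separate animals, so p-values measure only the spread between these libraries.

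MicroRNAs begin as hairpins in longer transcripts. In the nucleus the Microprocessor, made of the RNase III enzyme Drosha and its RNA-binding partner Dgcr8, cuts the hairpin out, and exportin 5 (Xpo5) carries it to the cytoplasm. There Dicer, with the double-stranded RNA-binding proteins Tarbp2 (TRBP) or Prkra (PACT), trims it to a short duplex, and 1 strand is loaded into an Argonaute protein to find target mRNAs. Among the Argonautes Ago2 is the one best known for cutting its targets. In mouse germ cells Dicer is needed for normal sperm formation.

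The Dgcr8 transcript is itself known as a Microprocessor substrate, because it holds hairpins that Drosha and Dgcr8 cut. One of them, the hairpin of Mir1306, lies inside the Dgcr8 span at chr16:18284239-18284317 on the minus strand (GRCm38.p6, sequence from RefSeq). It is shown as a hairpin within a gene of the set, and whether it bears on the J2 values of Dgcr8 was not tested. Capitals mark the mature microRNAs in the hairpin and the seeds (bases 2 to 8) in the mature forms.
Mir1306 hairpin: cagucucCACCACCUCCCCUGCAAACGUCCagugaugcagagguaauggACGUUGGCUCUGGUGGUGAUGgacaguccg
mmu-miR-1306-5p: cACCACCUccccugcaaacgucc
mmu-miR-1306-3p: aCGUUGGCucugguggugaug
The table has a row of its own for Mir1306 and for Gm24572, a neighbouring microRNA gene within the Dgcr8 span, and both were listed at 0 in all 16 libraries. How reads from the hairpins were shared between these rows and Dgcr8 is not given in the sources used here.

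The values are the authors' normalized counts. Their sums were 0.446 to 0.824 M in J2 and 6.05 to 34.9 M in flow-through. The worth of 1 read was estimated as the value that most genes share in a library. It came to about 0.116 to 0.516 normalized counts (here called units) in J2 and 2.005 to 8.31 in flow-through. On that estimate the libraries held about 1.23 to 4.54 M reads in J2 and 0.998 to 5.87 M reads in flow-through. Outside adult J2 replicate 2 few values lay at multiples of it, so all read numbers here are rough. On the same estimate a listed 0 allows a true level of up to 0.348 to 1.55 units in J2 and 6.01 to 24.9 units in flow-through (3 reads per library, counting error only). Adult J2 replicate 2 stood apart, with 22683 genes above 0 against 6874 to 11591 in the other J2 libraries. Of 9 meiotic germ cell markers 9 were above 0 in every group. Of 9 spermatid markers, 9 were above 0 in both adult groups, while in P18 testis 2 (J2) and 5 (flow-through) were above 0 in Dicer KO and 4 in each fraction of wild type.

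The genes of the set were low in every group and uneven between replicates. Of their 160 values 33 were 0, with 19 of 80 in J2 and 14 of 80 in flow-through. That is 23.8% in J2 and 17.5% in flow-through, beside 23.4% and 26.4% for all 9526 genes that reached 10 units in at least 2 libraries. Only Ago2 was above 0 in all 16 libraries. Drosha and Tarbp2 were each at 0 in 1 library, Xpo5 in 2, Dgcr8, Ago4 and Prkra in 3, Ago3 in 6, and Dicer1 and Ago1 in 7. Counting every value below the worth of 1 read, these numbers became 1 for Ago2 and Tarbp2, 2 for Drosha, 3 for Xpo5, 4 for Prkra, 5 for Dgcr8, 6 for Ago4, 8 for Dicer1, 10 for Ago1 and 11 for Ago3.

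**Figure D1:**
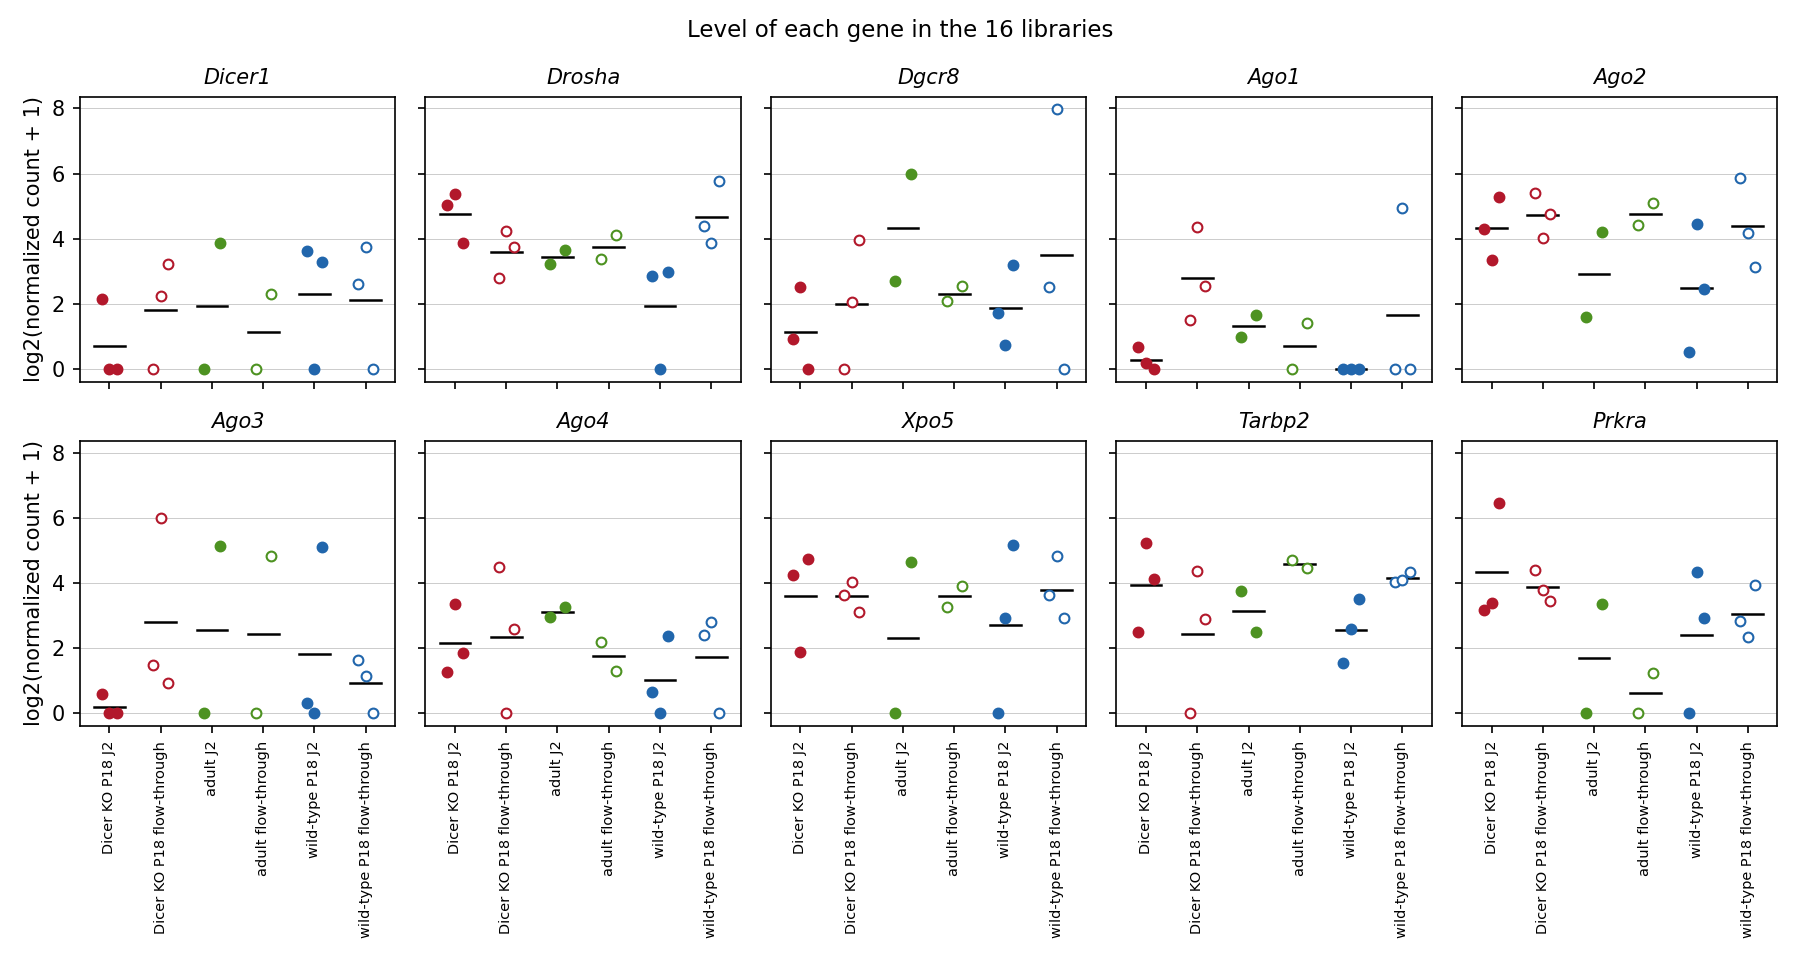
Level of each of the 10 genes as log2(normalized count + 1), with 1 point per library, filled for J2 and open for flow-through; bars are group means. Dicer1, Dgcr8, Ago1, Ago4 and Xpo5 have a library at 0 in the group that holds their highest value, and Drosha and Tarbp2 are the 2 genes whose J2 libraries lie above the flow-through partner of the same code in Dicer KO and below it in wild type.

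By the estimated worth of 1 read, the median value stood for about 20.9 reads in J2 and 1.92 reads in flow-through. Of the 80 flow-through values, 50 were at or below about 3 reads. In J2 the same gene could be absent from 1 library and rest on over 100 reads in another: Dicer1 was at 0 in adult J2 replicate 1 and at 13.7 units, or about 118 reads, in replicate 2. The values do not show whether copies of the same molecule were removed, so the number of RNA molecules behind the reads is not known.

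**Figure D2:**
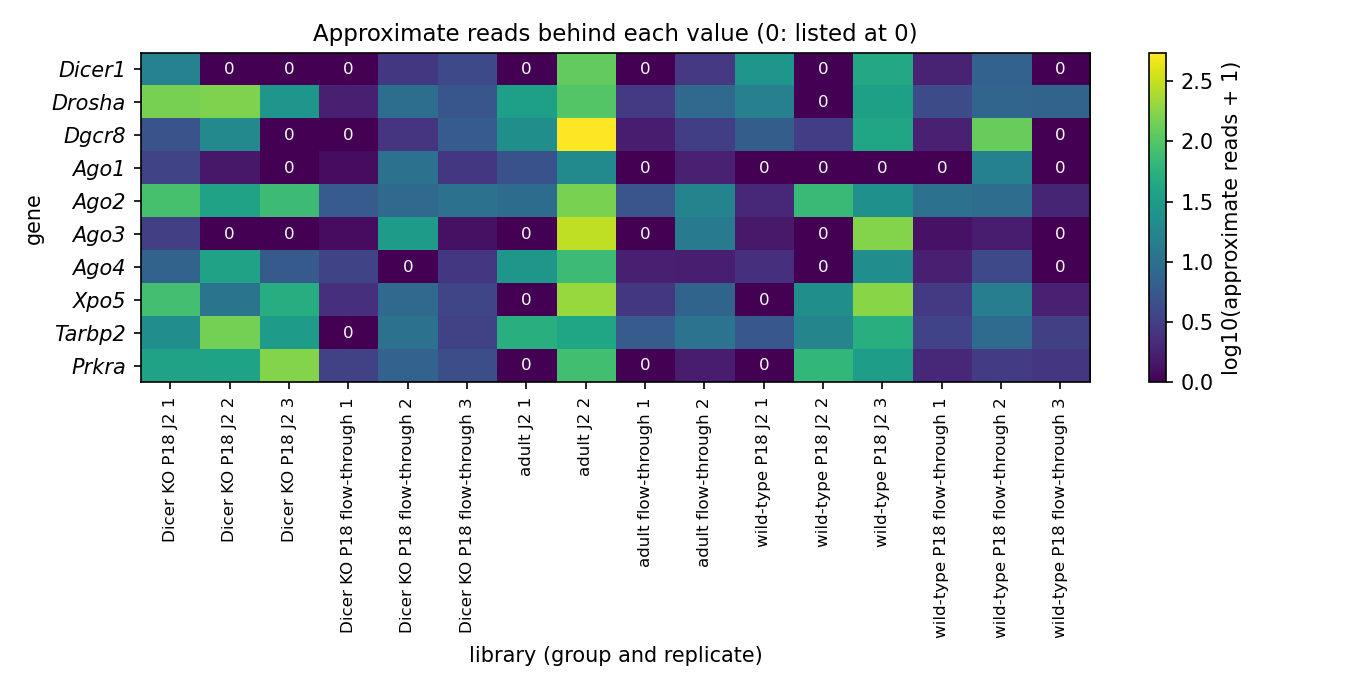
Approximate reads behind each value, as log10(reads + 1), for the 10 genes (rows) in the 16 libraries (columns); a 0 marks a value listed at 0. The brightest cell is Dgcr8 in adult J2 replicate 2, at about 541 reads, and the highest flow-through cell is Dgcr8 in wild-type replicate 2, at about 124 reads.

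Dicer1 itself, on chromosome 12 at 104687740 to 104751968, was too low to check the knock-out. In Dicer KO testis it was at 3.39, 0 and 0 in J2 and at 0, 3.68 and 8.33 in flow-through. In wild-type P18 testis it was at 11.25, 0 and 8.64 in J2 and at 5.10, 12.4 and 0 in flow-through. Adult testis had 0 and 13.7 in J2 and 0 and 3.90 in flow-through. The groups overlapped in both fractions, and every group contained a library at 0. In J2 Dicer KO differed from wild type by -1.58 on the log2(value + 1) scale (95% confidence interval -4.45 to 1.29, limma adjusted p = 0.906). That interval holds no change as well as a fall of over 4 log2 units. In flow-through Dicer1 did not reach 10 units in 2 libraries and was not fitted; its difference was -0.30 (two-sided exact permutation test p = 0.8, where 3 against 3 libraries cannot go below 0.1).

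Tarbp2, the TRBP partner of Dicer, lies on chromosome 15 at 102516077 to 102523676, where its first bases overlap the span of the kinase gene Map3k12. In Dicer KO testis it was at 4.58, 36.7 and 16.3 in J2 and at 0, 19.7 and 6.48 in flow-through. In adult testis it was at 12.5 and 4.64 in J2 and at 24.9 and 21.1 in flow-through. In wild-type P18 testis it was at 1.91, 4.99 and 10.4 in J2 and at 15.3, 16 and 18.95 in flow-through. The 3 wild-type J2 libraries thus lay below all 3 wild-type flow-through libraries (log2 difference -1.60, SE 1.14, adjusted p = 0.554), and the same held for adults (-1.46, SE 1.39, adjusted p = 0.909). In Dicer KO the fractions overlapped (1.52, SE 1.14, adjusted p = 0.654). None of these differences passed the test.

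Prkra, the PACT partner, lies on chromosome 2 at 76609215 to 76648220. It was at 7.98, 9.45 and 86.0 in Dicer KO J2, at 0 and 9.21 in adult J2 and at 0, 19.0 and 6.53 in wild-type J2. In flow-through it was at 20.1, 12.7 and 9.91 in Dicer KO, at 0 and 1.37 in adults and at 6.14, 4.10 and 14.4 in wild-type P18. The 2 adult flow-through libraries lay below all 6 P18 ones. Against wild type their difference was -2.42 (95% confidence interval -5.05 to 0.21, limma adjusted p = 0.481), which did not pass. At this depth the adult values stood for at most about 0.641 reads, and a 0 in adult flow-through replicate 1 allows up to 14.5 units, more than 5 of the 6 P18 values.

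Drosha, the nuclear RNase III, had the smallest p of the 9 genes fitted for a difference between genotypes in the J2 over flow-through ratio. Its span is on chromosome 15 at 12824804 to 12935291. In Dicer KO testis it was at 32.1, 40.8 and 13.5 in J2 and at 5.97, 18.0 and 12.3 in flow-through. In wild-type P18 testis it was at 6.23, 0 and 6.90 in J2 and at 20.04, 13.7 and 53.4 in flow-through. All 3 Dicer KO J2 libraries were above all 3 wild-type J2 libraries, and all 3 wild-type J2 libraries were below all 3 wild-type flow-through libraries. Adult testis lay between the P18 groups in J2, at 8.31 and 11.5, and overlapped both in flow-through, at 9.29 and 16.4.

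In J2 the Drosha mean was 28.8 ± 13.9 in Dicer KO and 4.38 ± 3.80 in wild type (SD, n = 3 each). The log2 difference was 2.82 (SE 1.23, 95% confidence interval 0.06 to 5.58), with an unadjusted limma p of 0.0462 and an adjusted p of 0.753 over 6882 genes, so it did not pass. In flow-through it was -1.09 (SE 0.81, adjusted p = 0.865). Between the fractions of wild type the difference was -2.74 (SE 1.01, unadjusted p = 0.0136, adjusted p = 0.213), and between those of Dicer KO 1.17 (SE 1.01, adjusted p = 0.694). The difference of these differences, the genotype by fraction interaction, was 3.91 (SE 1.42, 95% confidence interval 0.93 to 6.89). It ranked 118 of 9526 genes by p (unadjusted p = 0.0128) and did not pass the adjustment (adjusted p = 0.993).

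**Figure D3:**
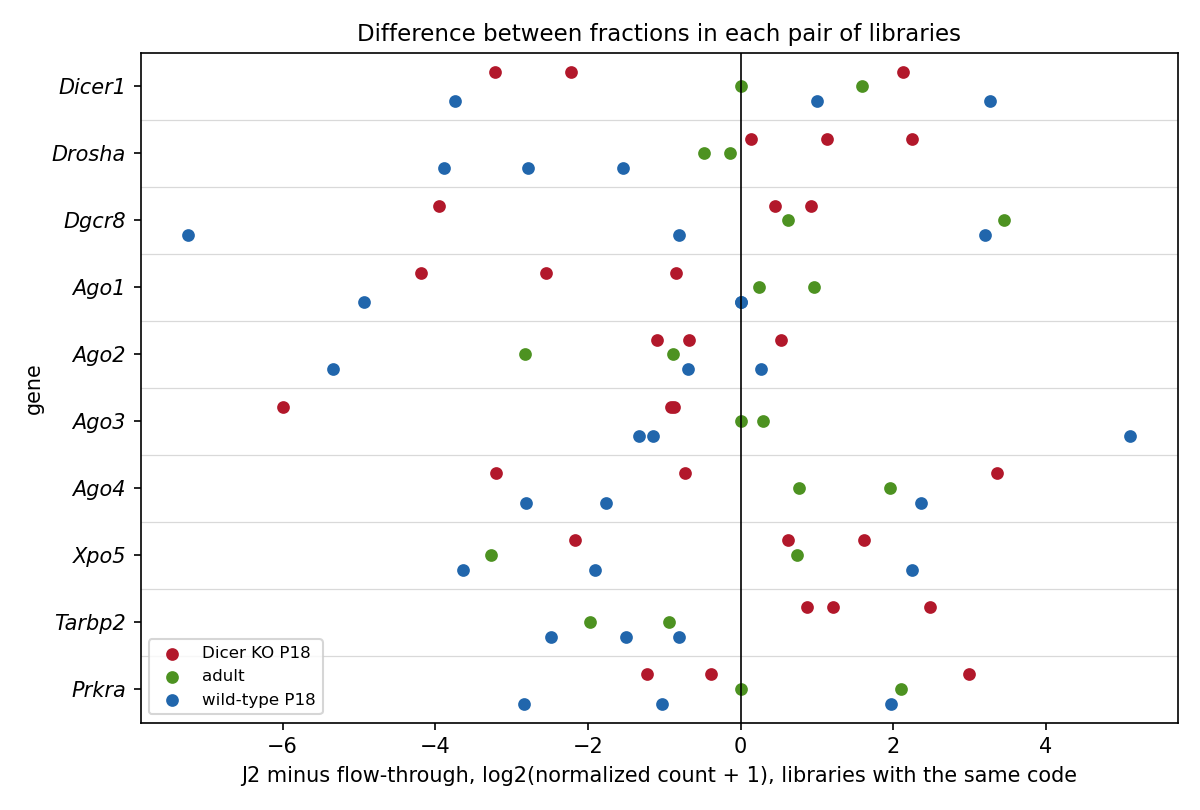
J2 minus flow-through, on log2(normalized count + 1), for each pair of libraries that share a code in the table's header, with Dicer KO in red, adult in green and wild type in blue. For Drosha and Tarbp2 the 3 Dicer KO pairs lie right of 0 and the 3 wild-type pairs left of it; no other gene of the set has the 3 pairs of one genotype on one side and the 3 of the other genotype on the other.

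Dgcr8, the RNA-binding partner in the Microprocessor (chromosome 16, 18253948 to 18289251), was set by single libraries. It was at 249 in wild-type flow-through replicate 2, with 4.75 and 0 in the other wild-type flow-through libraries. That 1 value made up 68.4% of the sum over all 16 libraries. In Dicer KO it was at 0.890, 4.71 and 0 in J2 and at 0, 3.17 and 14.5 in flow-through, and in wild-type J2 at 2.30, 0.653 and 8.17. Both adult J2 libraries, at 5.47 and 62.6, lay above both adult flow-through libraries, at 3.22 and 4.80 (log2 difference 2.04, SE 2.04, adjusted p = 0.912). The higher of them was adult J2 replicate 2, the library that stood apart, and without it the difference was 0.39. The span of Dgcr8 overlaps that of Trmt2a, a tRNA methyltransferase gene, and whether reads were counted by strand is not given in the sources used here.

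Xpo5, the export receptor (chromosome 17, 46202811 to 46243598), varied from 0 to 34.9 units with no group apart from another. In J2 it was at 17.95, 2.63 and 25.3 in Dicer KO, 0 and 23.9 in adults and 0, 6.62 and 34.9 in wild type. In flow-through it kept to 7.59 to 15.4 in Dicer KO, 8.66 to 13.95 in adults and 6.57 to 27.5 in wild type. Its Dicer KO over wild-type difference was 0.91 in J2 (95% confidence interval -3.08 to 4.90, limma adjusted p = 0.988) and -0.21 in flow-through (-2.13 to 1.72, limma adjusted p = 0.984).

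Of the Argonautes, Ago2 (chromosome 15, 73101625 to 73184947) was the only one above 0 in every library. In J2 it was at 18.7, 9.26 and 38.2 in Dicer KO, 2.03 and 17.55 in adults and 0.432, 20.85 and 4.46 in wild type. In flow-through it was at 41.1, 15.3 and 26.25 in Dicer KO, 20.5 and 33.4 in adults and 56.9, 17.2 and 7.81 in wild type. The flow-through means were close, at 27.6 ± 12.9 in Dicer KO and 27.3 ± 26.1 in wild type (SD, n = 3 each), with a log2 difference of 0.34 (95% confidence interval -1.45 to 2.12, limma adjusted p = 0.957). Both adult J2 libraries were below both adult flow-through libraries (-1.86, SE 1.36, adjusted p = 0.853).

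Ago3, Ago1 and Ago4 lie side by side on chromosome 4, all on the minus strand: Ago3 at 126326994 to 126431670, Ago1 at 126435012 to 126468707 and Ago4 at 126489487 to 126533586. Only 3341 bases separate Ago3 from Ago1 and 20779 bases separate Ago1 from Ago4. Their highest values fell in different libraries. Ago3 was high in 4 libraries, at 62.6 in Dicer KO flow-through replicate 2, 33.85 and 27.5 in adult J2 and flow-through replicate 2 and 33.5 in wild-type J2 replicate 3, and at 2.12 or less in the other 12. Ago1 reached 10 units in 2 flow-through libraries, Dicer KO replicate 2 (19.7) and wild-type replicate 2 (29.7), and stayed at 2.16 or less in J2. Ago4 reached 10 units in 1 library only, Dicer KO flow-through replicate 1 (21.3), and was too low for any fit.

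All 3 wild-type J2 libraries listed Ago1 at 0, and wild-type flow-through had it at 0, 29.7 and 0. Adult testis had Ago1 at 0.954 and 2.16 in J2 and at 0 and 1.67 in flow-through. In Dicer KO testis Ago1 was at 0.581, 0.130 and 0 in J2 and at 1.84, 19.7 and 4.84 in flow-through, so the fractions did not overlap. The log2 difference was -2.53 (SE 1.12, limma adjusted p = 0.395), which did not pass. For Ago3 they did not overlap either, at 0.510, 0 and 0 in J2 and 1.77, 62.6 and 0.888 in flow-through (-2.59, SE 1.68, adjusted p = 0.594). The 2 lower Ago3 values in flow-through stand for less than about 1 read each. So does the lowest Ago1 value there, at about 0.227 reads, on which the lack of overlap rests. Ago4 was at 1.42, 9.28 and 2.57 in Dicer KO J2, 6.71 and 8.61 in adult J2 and 0.560, 0 and 4.17 in wild-type J2. Adult J2 was above wild-type J2 and above adult flow-through, at 3.55 and 1.47, with no test for either. These 2 flow-through values stand for about 0.735 and 0.687 reads. In P18 flow-through Ago4 was at 21.3, 0 and 4.93 in Dicer KO and at 4.29, 6.01 and 0 in wild type, which overlapped.

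Across the set, no gene passed the limma test in any comparison on the authors' scale. The fits over 16 libraries covered 9 of the 10 genes (Ago4 was too low), those over the J2 libraries 7 (without Dgcr8, Ago1 and Ago4) and those over the flow-through libraries 8 (without Dicer1 and Ago4). For J2 over flow-through, limma called 0 of 9 genes in Dicer KO, where 0.357% of all genes were called, 0 of 9 in adults (0.315%) and 0 of 9 in wild type (0.903%). At an unadjusted p under 0.05 there were 1 (Ago1), 0 and 1 (Drosha) of 9, beside 11.5%, 6.64% and 13.9% of all genes. The median log2 difference over the 9 genes was -0.41 in Dicer KO, 0.14 in adults and -1.60 in wild type, beside -0.15, 0.05 and -0.05 over all genes.

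Between Dicer KO and wild type limma called 0 of 7 genes in J2 and 0 of 8 in flow-through, and 0% of all genes in each. At an unadjusted p under 0.05 there were 1 of 7 (Drosha) and 0 of 8, against 6.39% and 6.11% of all genes. The medians were 1.399 in J2 and 0.06 in flow-through, beside 0.13 and 0.33 over all genes. Between adult and wild-type P18 testis limma called 0 of 7 genes in J2 (5.46% of all genes) and 0 of 8 in flow-through (3.23%), with 0 at an unadjusted p under 0.05 in each (14.1% and 11.7% of all genes). The medians were 0.43 and -0.57, beside 0.33 and 0.28 over all genes. These comparisons share the wild-type libraries. Both interactions called 0 of 9 genes and 0% of all genes, with 1 (Drosha) and 0 at an unadjusted p under 0.05 (4.78% and 5.4% of all genes).

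Few of the genes fitted had groups without overlap. In Dicer KO 2 of 9 genes were lower in all J2 than in all flow-through libraries (Ago1 and Ago3; 11.1% of all genes) and 0 were higher (6.95%). In wild type 2 of 9 were lower (Drosha and Tarbp2; 8.3%) and 0 higher (7.08%). In adults 2 of 9 were lower (Ago2 and Tarbp2; 17.3%) and 1 higher (Dgcr8; 18.4%). In J2 1 of 7 was higher in all Dicer KO than in all wild-type libraries (Drosha, 6.12%) and 0 lower (3.78%). Between adult and wild-type J2 1 of 7 was higher in adults (Drosha, 18.7%) and 0 lower (8.83%). Of the genes not fitted, Ago1 and Ago4 also lay higher in adult than in wild-type J2, and Ago4 higher in adult J2 than in adult flow-through. In flow-through 0 of 8 were higher (7.53%) or lower (3.04%) in Dicer KO, while 1 of 8 was higher in adults (Tarbp2; 16.6%) and 1 lower (Prkra; 8.57%). On the authors' scale 2 of 9 genes had opposite signs in all Dicer KO and all wild-type pairs with Dicer KO the higher. These were Drosha and Tarbp2 (0.588% of all genes). With Dicer KO the lower there were 0 of 9 (0.714%).

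**Figure D4:**
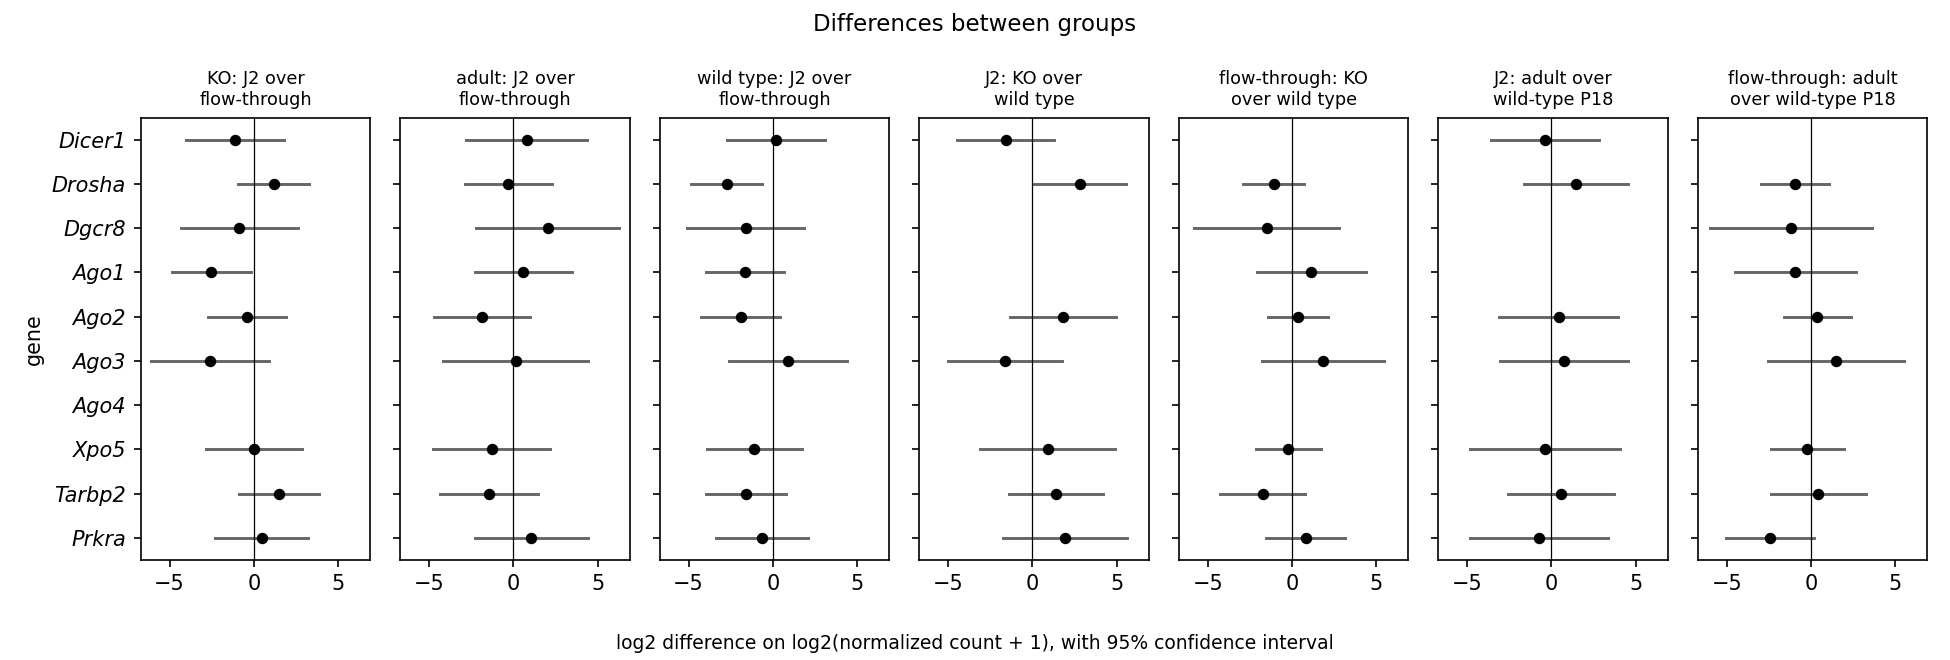
Log2 differences on log2(normalized count + 1) with 95% confidence intervals from limma, for each gene (rows) and for the 7 comparisons of groups (panels), without the interactions; a gene without a point was too low to be fitted. All intervals drawn cover 0 except those of Drosha for J2 over flow-through in wild type and for Dicer KO over wild type in J2, and of Ago1 for J2 over flow-through in Dicer KO, and none of the 3 passed the adjustment.

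The intervals were wide. For a typical gene of the set the 95% confidence interval reached 3.15 log2 units to each side for Dicer KO against wild type in J2 and 2.435 in flow-through. Over the 16 libraries the spread within groups was close to that of all genes. The median SD there was 1.57 log2 units for the 9 genes and 1.56 for all genes. In the fits over the J2 libraries the set spread more, with a median SD of 1.924 for 7 genes and 1.647 for all genes. In those over the flow-through libraries it spread less, with 1.202 for 8 genes and 1.482 for all genes.

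All J2 over flow-through differences are relative to the median gene. Rescaling each library to a common total outside the mitochondrial genes moved the median of all genes to 2.16 in Dicer KO, 2.74 in adults and 1.87 in wild type. On that scale Drosha (4.22), Tarbp2 (3.58), Prkra (3.79) and Ago2 (3.25) were called higher in J2 in Dicer KO (limma adjusted p = 0.00575 to 0.0449), and Drosha (3.36) and Dgcr8 (4.90) in adults (adjusted p = 0.0432 and 0.0357). On the same scale 29.9% of all genes were called higher in J2 in Dicer KO and 36.3% in adults. The wild-type differences of Drosha (0.40) and Tarbp2 (1.72) then turned positive. The interaction of Drosha was 3.82 on that scale and that of Tarbp2 1.85, and neither was called (limma adjusted p = 0.81 and 0.982).

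Cell markers moved with some of these comparisons. The 9 spermatid markers summed to 1129 to 1842 in adult J2 and 0 to 2.45 in wild-type J2, and to 2310 to 2663 in adult and 6.22 to 13.85 in wild-type flow-through. All 9 (Prm1, Prm2, Tnp1, Tnp2, Acrv1, Spaca1, Odf1, Gsg1 and Tssk6) were called higher in adult over wild-type J2. Their limma adjusted p was 0.000215 to 0.0171, and 5.46% of all genes were called in either direction. In flow-through the 8 that were fitted were called higher, beside 3.23% of all genes called in either direction. Spaca1 was too low there to be fitted. The hemoglobin gene Hbb-bs fell in adults in both fractions and Hba-a1 in flow-through. Peritubular markers summed to 9.77 to 13.1 in adult and 73.3 to 151 in wild-type J2. Their flow-through sums overlapped, at 35.2 to 223 and 150 to 450. Sertoli cell sums overlapped in J2, at 108 to 245 in adults and 242 to 673 in wild type. Leydig cell sums did so too, at 135 to 181 and 79.7 to 207. No peritubular, Sertoli or Leydig cell marker was called between adult and wild-type testis. Of the Sertoli cell and meiotic lists, led by Clu and Ldhc, 8 and 9 genes were fitted for wild-type J2 over flow-through. Each list had 1 gene called higher, Cldn11 (4.83) and Ldhc (2.40), beside 0.903% of all genes called in either direction.

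Between the genotypes the 9 Sertoli cell markers summed to 624 to 806 in Dicer KO J2 and 242 to 673 in wild-type J2, and to 319 to 350 in Dicer KO and 180 to 209 in wild-type flow-through. Of these Amh was at 0 in Dicer KO flow-through and in both wild-type groups. The 9 meiotic germ cell markers summed to 804 to 1148 in Dicer KO J2 and 1098 to 1720 in wild-type J2, and to 494 to 918 in Dicer KO and 302 to 656 in wild-type flow-through. No marker was called between the genotypes. Leydig cell markers (7, led by Cyp17a1) summed to 83.2 to 118 in Dicer KO J2 and 79.7 to 207 in wild-type J2, and peritubular markers (5, led by Acta2) to 83.1 to 331 in Dicer KO J2 and 73.3 to 151 in wild-type J2. The 7 blood and macrophage markers, led by Hbb-bs, summed to 126 to 378 in Dicer KO J2 and 132 to 447.5 in wild-type J2. In flow-through, Leydig cell sums were 49.8 to 75.7 in Dicer KO and 55.5 to 132 in wild type. Peritubular sums there were 282 to 446 and 150 to 450, and blood and macrophage sums 117 to 382 and 139 to 224. The part of these shifts in the values of the 10 genes was not tested, and fewer cells of a type cannot be told apart from less RNA per cell.

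Of the other genes of the pathway 1 was called. The lists held 17 partners of the Microprocessor, 14 genes of export, tailing and decay, 14 of Argonaute loading and 30 of silencing. For J2 over flow-through 17, 12, 14 and 29 of them were fitted and 0 were called in any of the 3 conditions, and 0 were called between Dicer KO and wild type in either fraction. Between the genotypes the largest median of a list was 0.99, for export, tailing and decay in J2 (9 genes fitted, all genes 0.13). Between adult and wild-type testis 0 were called in flow-through and 1 in J2, where Hspa8 was the 1 of 13 loading genes to pass and 5.46% of all genes passed. Hspa8, a heat shock protein of the chaperone machinery that loads Argonautes, was at 21.3 and 52.0 in adult J2 and at 189, 434 and 630 in wild-type J2. In J2 it fell by 3.44 on the log2 scale (SE 0.72, limma adjusted p = 0.0175). In flow-through it was at 30.1 and 38.9 in adults and at 124, 132 and 102 in wild type, also without overlap. It was not called there, and 8.57% of all genes were lower in adult flow-through without overlap. Processed copies of this gene in the mouse genome can share its reads.

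The highest gene of each list was well above the filter. Hsp90aa1, the chaperone that holds Argonautes open for loading, was at 503.5 ± 146 in Dicer KO J2 and 503 ± 190 in wild-type J2 (SD, n = 3 each). Pabpc1, a poly(A)-binding protein in the silencing list, was at 320 ± 192 in Dicer KO J2 and 289 ± 101 in wild-type J2. Ran, the GTPase that exportin 5 needs, was at 180 ± 134 in Dicer KO J2 and 75.9 ± 25.6 in wild-type J2, and at 26.6 to 74.0 in Dicer KO flow-through and 99.9 to 620 in wild-type flow-through, where the groups did not overlap. Ddx5, a Microprocessor helicase, was at 57.7 ± 48.0 in Dicer KO J2 and 148 ± 16.1 in wild-type J2. Ddx5 was at 19.1 to 111 in the Dicer KO libraries and 130 to 159 in the wild-type ones in J2, and at 41.1 to 107 in Dicer KO and 141 to 226 in wild-type flow-through. Its groups did not overlap in either fraction. Of all genes 3.78% in J2 and 3.04% in flow-through were lower in Dicer KO without overlap, and the flow-through share applies to Ran too. Neither Ran nor Ddx5 was called in either fraction.

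Likeness of profile was measured as Pearson's r over the 16 libraries for the 4 genes that reached 10 units in at least 8 of them, against 3362 others, as a description. Ago2 was most like Scrib (0.875), Tnpo2 (0.87) and Nup155 (0.847), and Xpo5 was most like Gm38194 (0.867), Anapc1 (0.856) and Nup155 (0.852). Tarbp2 was most like Mkln1 (0.832), Dot1l (0.802) and Prok2 (0.756), and Drosha most like Btrc (0.809), Gnai2 (0.8) and Lpcat3 (0.765). These are the highest of all genes compared, in libraries that share depth and fraction. Only these 4 genes of the set could be compared with one another, and none was among the 3 nearest of another.

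Each promoter of the set that could be examined held more CpG than the median of all promoters. RefSeq promoters (250 bases before to 50 after the start, GRCm38.p6) were at hand for 9 of the 10, all but Ago2. They held 16 (Prkra) to 54 (Ago4) CpG, with a median of 37, where the median of all promoters was 7, and their median GC content was 73%, where that of all promoters was 52.7%. The letters TATAAA, on either strand, were in 0 of the 9 and in 14.2% of all promoters.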

How the data were processed

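Per the labels, testis RNA was captured with J2 and sequenced from NuGEN Ovation SoLo libraries, which keep strand. The submitters' processing notes name FastQC, Trimmomatic, Salmon, DESeq2 and the build mm10, with no version or setting. The authors deposited a normalized count (a signal, not whole reads) for each Ensembl gene in each library. All 16 columns were matched to samples through their titles, with 0 unmatched and 0 identical pairs. Of 35920 gene identifiers, 35446 matched a symbol.

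The worth of 1 read was taken as the value that most genes share in a library. Values at its multiples (up to 20, tolerance 1e-06) made up 18.7% of the genes above 0 in adult J2 replicate 2. In the other libraries they made up 0.269% to 0.766%, so the estimate has little support there. Whole reads could not be recovered and no count test was run. Transcript lengths were not used here, so levels are not compared between genes.

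The test was limma 3.58.1 (R 4.3.3) on log2(value + 1) (mean trend, two-sided, Benjamini-Hochberg over all genes tested, threshold 0.05). The scale understates changes of low genes. A gene was fitted if 2 or more of the libraries reached 10. Fractions and interactions were fitted over 16 libraries, genotype and age over the 8 libraries of each fraction. The fits were tested on simulated data, drawn as normal log2 values. Changes were added there only to genes above a set mean level, so recovery of changes in lower genes was not examined. Coordinates and sequences are from RefSeq tables of GRCm38.p6, the same assembly as mm10. The genes of the set, the lists and the tests were chosen with earlier results of these data known. Of other genes, the text names those of the pathway and marker lists that were called, the highest of each list, and the 3 most alike in profile to each gene that allowed it.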

Additional observations from a re-analysis of the deposited data

Results flagged for a closer look

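Drosha stood out because all 3 Dicer KO pairs of libraries had more of it in J2 than in flow-through (2.25, 1.14 and 0.13 on the log2 scale) and all 3 wild-type pairs had less (-1.54, -3.88 and -2.78). The tested interaction was 3.908 (limma adjusted p = 0.993) and did not pass. Tarbp2 stood out for the same reason, with 2.48, 0.86 and 1.21 in the Dicer KO pairs and -2.49, -1.50 and -0.81 in the wild-type pairs. Its interaction was 3.118 (limma adjusted p = 0.996) and did not pass either. Of all 9526 genes 0.588% had this pattern of signs. The signs hold on the authors' scale: after rescaling to a common total the wild-type differences were 0.40 (Drosha) and 1.72 (Tarbp2). Libraries that share a code did not deviate together over all genes. In both genes the highest value in Dicer KO J2 was in replicate 2. The flow-through values behind these pairs rest on at most about 9.66 reads each, and for Tarbp2 1 of them is a 0.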

How the results depend on the processing

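The number of genes of the set called, 0 in each comparison, stayed 0 in 126 of the 128 recalculations in which any of them could be fitted, 5 of which fitted 1 gene only; at a filter of 50 no gene of the set was left in the other 4. The exceptions were 4 in Dicer KO and 2 in adult J2 over flow-through after rescaling to a common total. Of 1005 log2 differences under an alternative 920 kept their sign and 85 turned it. Some alternatives cannot move a log2 difference, because other filters, the replicate block and a change in the other groups fitted keep the means compared. Those kept their sign by construction, so the 920 overstates how stable the signs are. No gene of the set was called on the authors' scale, so no called difference could turn. Leaving out 1 library at a time gave 0 calls in the set in every comparison; where 1 adult library was left, it was assumed to vary like the others. The Drosha interaction ranged from 2.74 (pseudocount 5) to 4.43 (without wild-type J2 replicate 3), with adjusted p = 0.715 to 1, and that of Tarbp2 from 1.85 to 4.09. Libraries that share a code did not deviate together (r = -0.0264 to 0.0306 over all genes), and the reported fits carry no block; with the replicate block 0 genes of the set were called, and calls over all genes fell to 4 higher and 16 lower in Dicer KO (16 and 18 without it), 2 and 13 in adults (14 and 16) and 7 and 17 in wild type (50 and 36). A block could not be fitted between genotypes or ages, whose codes differ. Rescaling took the calls over all genes for J2 over flow-through to 2848 higher in Dicer KO, 3460 in adults and 2562 in wild type. Values below the estimated worth of 1 read made up 21 of 80 in J2 and 30 of 80 in flow-through. The fits without adult J2 replicate 2 and the added interaction settings were chosen after seeing the data. No count test could be made, as whole reads could not be recovered.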
